A study of Mus musculus with 10 samples.

Results

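The Dlk1-Dio3 region is an imprinted cluster on mouse chromosome 12 whose long noncoding RNAs Meg3 (also called Gtl2), Rian and Mirg are transcribed from the maternal chromosome, while the protein-coding genes Dlk1, Rtl1 and Dio3 are transcribed from the paternal one. The members were taken as every non-control array probe whose gene name or description in the scanner files is one of 7 symbols (Meg3, Mirg, Rian, Dlk1, Dio3, Rtl1 and Begain) or an older symbol of one. This found 11 of 41174 probes, for 5 of the 7 genes, with 5 probes for Meg3, 2 for Rian, 1 for Mirg, 2 for Dlk1 and 1 for Dio3. No probe matched Rtl1 or Begain, which were not analysed here. The member list was drawn up with the difference between knockout and wild type in view, so the values of member probes in that contrast are a description and carry no test.

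Liver RNA of C57BL/6 mice aged 1 year was read on 10 Agilent mouse arrays, each carrying a single Cy3-labelled sample. Of these, 5 were of wild-type mice (WT1 to WT5) and 5 of knockout mice without TAK1/TR4, an orphan nuclear receptor encoded by Nr2c2 (KO1 to KO5). The labels name no other allele, drug or diet for either group, give no sex, and do not state which part of the gene was deleted, or that each array came from a separate mouse. P-values given here for genes outside the region therefore measure the spread between these samples.

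In the mouse, transcription of the maternal RNAs runs in one direction through Meg3, Rian and Mirg, and the 3 serve as hosts for small nucleolar RNAs and microRNAs. A methylated element between Dlk1 and Meg3 sets which parental chromosome is read. The cluster is active in the embryo and placenta, and the adult liver is known for low levels of its RNAs. Dlk1 is a membrane protein related to Notch ligands, made by fetal hepatoblasts. Dio3 inactivates thyroid hormone, Rtl1 is a retrotransposon-derived protein of the placenta, and Begain, at the edge of the region, encodes a protein of the synapse.

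The member probes lay between positions 106981450 and 107799226 of chromosome 12 in mouse build mm7, the build in the file headers, over 817.8 kb. In that order stood the 2 Dlk1 probes, the 5 Meg3 probes, the 2 Rian probes, the Mirg probe and the Dio3 probe. Distances below are counted from the start of the first Meg3 probe. No mm7 genome was used here, so no exon, intron or untranslated region is given for a probe. In RefSeq's annotation of the later assembly GRCm38.p6, Meg3, Rian and Mirg are long noncoding RNA genes at 109540996 to 109571729, 109603945 to 109661716 and 109734981 to 109749458 of chromosome 12. The 4 probe sequences that the results turn on are given as deposited, 5′ to 3′, each 60 bases long. The first Meg3 probe is listed over a span of 8486 bases, chr12:107070994-107079479 (mm7), so its bases are not 1 unbroken stretch of the genome, and it is called the split Meg3 probe below. The distal Meg3 probe lies at chr12:107092697-107092756, 21.7 kb on. The second Rian probe lies at chr12:107180614-107180673 and the Mirg probe at chr12:107261346-107261405. All 4 are listed in the ascending direction of the chromosome.
Split Meg3 probe: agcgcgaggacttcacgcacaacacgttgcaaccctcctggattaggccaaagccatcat
Distal Meg3 probe: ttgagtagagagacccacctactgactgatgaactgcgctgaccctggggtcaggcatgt
Second Rian probe: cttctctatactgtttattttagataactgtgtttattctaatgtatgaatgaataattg
Mirg probe: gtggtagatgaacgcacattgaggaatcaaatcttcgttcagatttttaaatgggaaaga

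Before any difference was read, the arrays were compared. The 75th percentile of probe intensity ran from 951.9 to 1350.4, and 51.0% to 62.4% of probes were well above background on an array by the scanner program's own flag. Pairs of wild-type arrays correlated at 0.988 to 0.994 across kept probes, and pairs of knockout arrays at 0.966 to 0.987. Slide 1 held WT1 to WT4, slide 2 held WT5 with KO1, KO2 and KO3, and KO5 and KO4 had slides 3 and 4 to themselves, so slide 2 alone held both groups. Slide 4 was scanned on a later day. KO4 had the most probes above background on it alone, 1137 (2.76% of probes), against 71 to 485 on each other array. As a check of the labels, a probe for a cDNA at the Nr2c2 locus (chromosome 6, 92237812 to 92237871, mm7), listed in the descending direction, exceeded background in 5 of 5 wild-type and 0 of 5 knockout samples, at least 5.25-fold lower in the knockout (limma adjusted p = 0.000207). Both probes named Nr2c2, listed in the ascending direction, were above background on all 10 arrays and were not lower, at 0.44 ± 0.11 (limma adjusted p = 0.042) and 0.36 ± 0.13 (adjusted p = 0.148) on the log2 scale. The labels do not say whether these 2 probes or the cDNA probe lie in the deleted part. The check of the labels therefore rests on the cDNA probe alone, and whether that probe reads the Nr2c2 transcript is not known.

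Meg3, a long noncoding RNA known to restrain cell growth, was higher on every knockout array than on any wild-type array at both of its probes that were above background throughout. At the distal probe the intensities were 69.0, 125, 222, 333 and 112 on WT1 to WT5, and 1751, 4061, 1230, 1391 and 4328 on KO1 to KO5. Every knockout array was above every wild-type array, and KO2 and KO5 stood well above the other 3 knockout arrays. On the log2 scale relative to the array's 75th percentile, on which all later differences stand, the level was -2.83 ± 0.78 in wild type and 0.95 ± 0.90 in the knockout (SD, n = 5 each). The difference was 3.79 ± 0.47 (SE of the limma fit), a 13.8-fold higher signal.

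The split Meg3 probe gave intensities of 36.0, 69.5, 122, 192 and 58.6 in wild type and 882, 2042, 626, 783 and 2331 in the knockout. The groups did not overlap here either, and the lowest knockout array stood 1.67 above the highest wild-type array on the log2 scale, against 1.86 at the distal probe. The difference was 3.73 ± 0.49, or 13.3-fold. Both were above background on all 10 arrays, and none of the member probes was saturated. Among all 23266 kept probes the distal and split Meg3 probes held ranks 3 and 4 by the size of the increase.

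The 2 probes tracked each other from array to array. The distal minus the split signal stayed between 0.79 and 0.99 on the log2 scale over the 10 arrays, with a mean of 0.88 ± 0.06 in wild type and 0.94 ± 0.07 in the knockout (SD, n = 5 each). The size of that offset belongs to the probes and is not read as a level, but its spread was small beside the spread of Meg3 itself. In the knockout the brightest array was 3.81-fold above the dimmest at the distal probe, and in wild type 4.17-fold. WT4 and WT3 were the brightest wild-type arrays on both probes and WT1 the dimmest.

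The other 3 Meg3 probes were dim. At +12.9 kb (107083918 to 107083977) the intensities were 66.5, 9.84, 14.6, 22.6 and 26.9 in wild type and 120, 352, 46.0, 80.3 and 233 in the knockout. Of these, WT1 and the 4 knockout arrays other than KO3 were above background. The groups overlapped, because WT1 was above KO3. The fitted difference of 2.41 ± 0.65 rests on values at background in KO3 and the other 4 wild-type arrays, and is not a measured fold. At +11.6 kb (107082578 to 107082637) the signal was 5.61, 8.66, 8.35, 31.4 and 10.8 in wild type and 45.2, 110, 25.4, 44.7 and 109 in the knockout, above background on KO2 and KO5 and on 0 wild-type arrays. WT4 lay above KO3 there, and by a bound the knockout was 1.35-fold higher. For this bound each wild-type array entered with its detection limit, the lowest signal above background on it, or with the probe's signal where that was larger. Each knockout array entered with its measured signal, here with KO1, KO3 and KO4 not above background. The bound rests in part on those values and is not a strict lower limit. At +9.2 kb (107080192 to 107080251) the signal was 6.66 to 13.7 in wild type and 12.5 to 60.4 in the knockout, and it was above background on KO5 alone, so no fold is given.

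**Figure D1:**
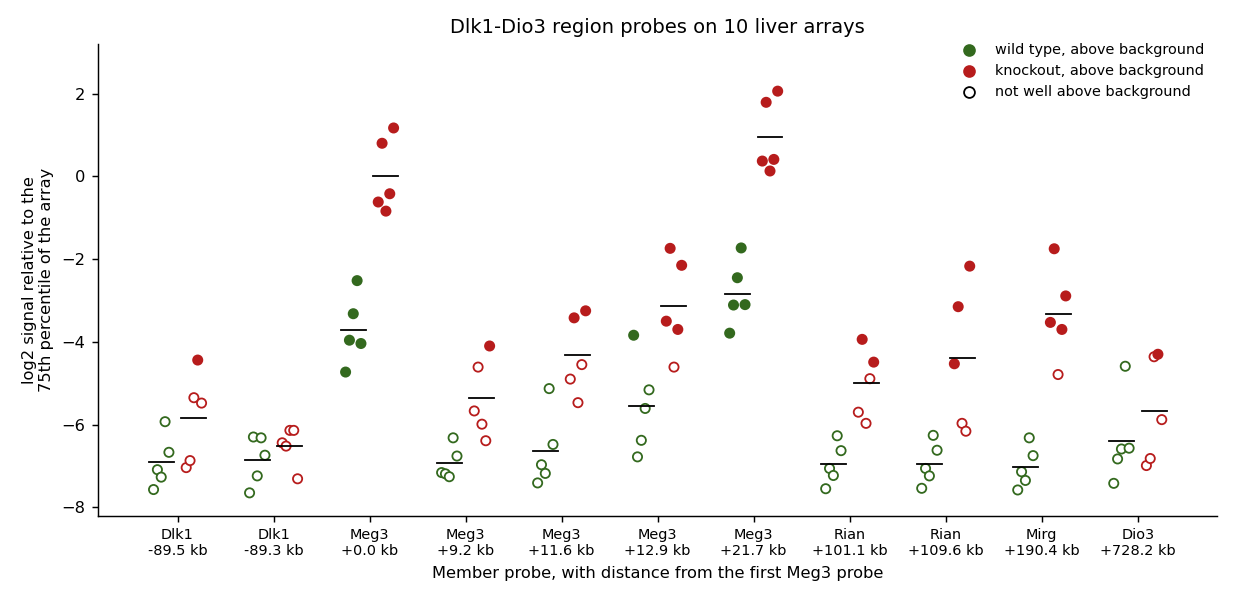
Signal of each of the 11 member probes on each array, as log2 relative to the array's 75th percentile (vertical axis), in order along chromosome 12 (horizontal axis), with wild-type arrays in green, knockout arrays in red, open circles for arrays not well above background and a bar at each group's mean of 5 arrays. The distal Meg3 probe (+21.7 kb) averaged -2.83 in wild type and 0.95 in the knockout, and the Dlk1 and Dio3 probes have a filled circle on KO4 at most.

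Mirg, the most distal of the noncoding RNAs and the host of a microRNA cluster, was not above background on any wild-type array. Its intensities were 4.98, 7.66, 7.45, 13.8 and 8.95 in wild type and 117, 350, 40.6, 80.6 and 140 in the knockout. The knockout arrays other than KO3 were above background, and all 5 lay above all wild-type arrays, with KO2 the highest. By the same bound the knockout was 2.67-fold higher, with KO3 entered at a signal not above background. The measured means were -7.03 ± 0.50 and -3.33 ± 1.12 (SD, n = 5 each), with a fitted difference of 3.70 ± 0.49 that rests on wild-type values at background.

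Rian, which lies between Meg3 and Mirg and hosts small nucleolar RNAs, was dimmer. At the second probe the signal was 5.11, 8.12, 8.06, 14.3 and 9.77 in wild type and 58.6, 133, 17.9, 14.7 and 231 in the knockout. KO1, KO2 and KO5 were above background, and the highest wild-type array (WT4) stood just under the lowest knockout array, by 0.11 on the log2 scale. By the same bound the knockout was 1.28-fold higher at this probe, with KO3 and KO4 entered at signals not above background. At the first Rian probe (107172103 to 107172162) the signal was 5.08, 8.09, 8.06, 14.2 and 9.71 in wild type and 26, 76.7, 17.9, 35.3 and 46.1 in the knockout, above background on KO2 and KO5. Its groups did not overlap, and the bound was under 1, so no fold is given.

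The paternal protein-coding genes were at background on nearly all arrays. Dlk1 at its first probe (106981450 to 106981509) gave 5.01, 7.94, 7.89, 18.1 and 9.46 in wild type and 10.3, 10.1, 27.5, 48.1 and 23.2 in the knockout, above background on KO4 alone. Its second probe (106981689 to 106981748) ran from 4.75 to 13.7 in wild type and from 6.52 to 15.9 in the knockout and was above background on 0 arrays. The groups overlapped on both Dlk1 probes. Dio3 (107799167 to 107799226) gave 5.56, 9.48, 12.6, 45.7 and 10.1 in wild type and 10.6, 10.4, 54.6, 53.0 and 17.6 in the knockout, again above background on KO4 alone, and the groups overlapped. No level of Dlk1 or Dio3 could be measured in either group at this signal, and KO4 was also the array with the most probes above background on it alone.

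Counted over the region, 4 of the 11 member probes (3 of Meg3 and the Mirg probe) passed the detection filter (4 or more arrays of either group) and so were kept for the fit. Of these 4, 3 were called higher in the knockout and 0 lower at an adjusted p under 0.05, where 2.06% of all kept probes were called higher and 3.01% lower. Each kept probe passed through its knockout arrays or both groups, and the members were chosen from this contrast, so nothing is read from that count. Every knockout array lay above every wild-type array on 5 member probes, all of them noncoding (5 of 8), where 2.36% of all probes did so. On 4 member probes at least 2 knockout arrays and 0 wild-type arrays were above background, against 0.668% of all probes. In bulk RNA, more cells that contain a transcript and more transcript per cell cannot be told apart.

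The 5 knockout arrays differed among themselves in the noncoding RNAs. KO2 and KO5 were the 2 highest knockout arrays on all 8 noncoding member probes, although at +9.2 kb KO2 was itself not above background. The coding probes were at background on nearly all arrays and give no order. The member probes share arrays, and the Meg3 probes share a transcript, so these are not 8 separate observations. The same pair was highest on 6.39% of all probes and 9.06% of kept probes. Among the 886 kept probes (3.81%) on which every knockout array was above every wild-type array, it was highest on 121 (13.7%). KO2 was on slide 2 with KO1 and KO3, and KO5 was alone on slide 3. Without KO2 and KO5 the differences were 3.09 for the split Meg3 probe, 3.14 for the distal one, 3.02 for Mirg and 1.62 for the Meg3 probe at +12.9 kb.

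**Figure D2:**
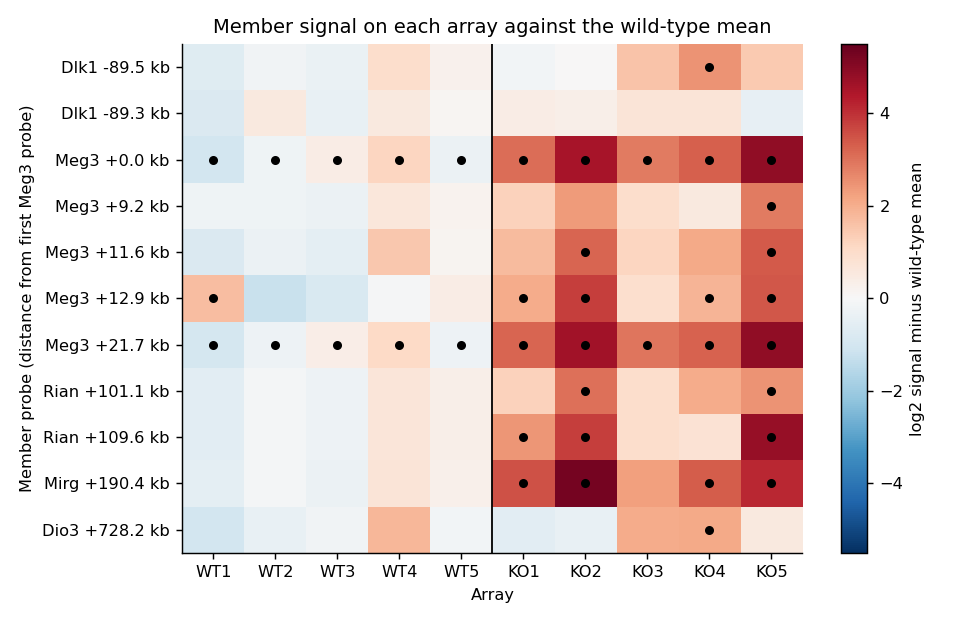
Signal of each member probe (rows, in order along chromosome 12) on each array (columns), as log2 minus the probe's wild-type mean, with a black dot where the array was well above background. Rows of Meg3, Rian and Mirg are darkest in KO2 and KO5, and the Dlk1 and Dio3 rows carry a dot on KO4 alone or on no array.

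On slide 2, which held WT5 and KO1 to KO3, the differences were 3.82 at the split Meg3 probe, 3.86 at the distal probe, 3.39 at Mirg (with a bound of 2.15-fold) and 1.88 at the Meg3 probe at +12.9 kb. WT5 was not above background at Mirg or at +12.9 kb, so those 2 differences rest on a wild-type value at background. KO3 was not above background at either probe, and entered the differences and the bound with its measured signal. With slide as a fixed block the difference also comes from slide 2 alone, the only slide with both groups. Within slide 2, and with slide as a fixed block, the fit called 0 member probes rather than 3. Normexp background correction with quantile normalisation, which adds an offset of 50, gave smaller differences of 2.72 at the split probe, 3.08 at the distal probe, 1.20 at Mirg and 0.92 at +12.9 kb.

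**Figure D3:**
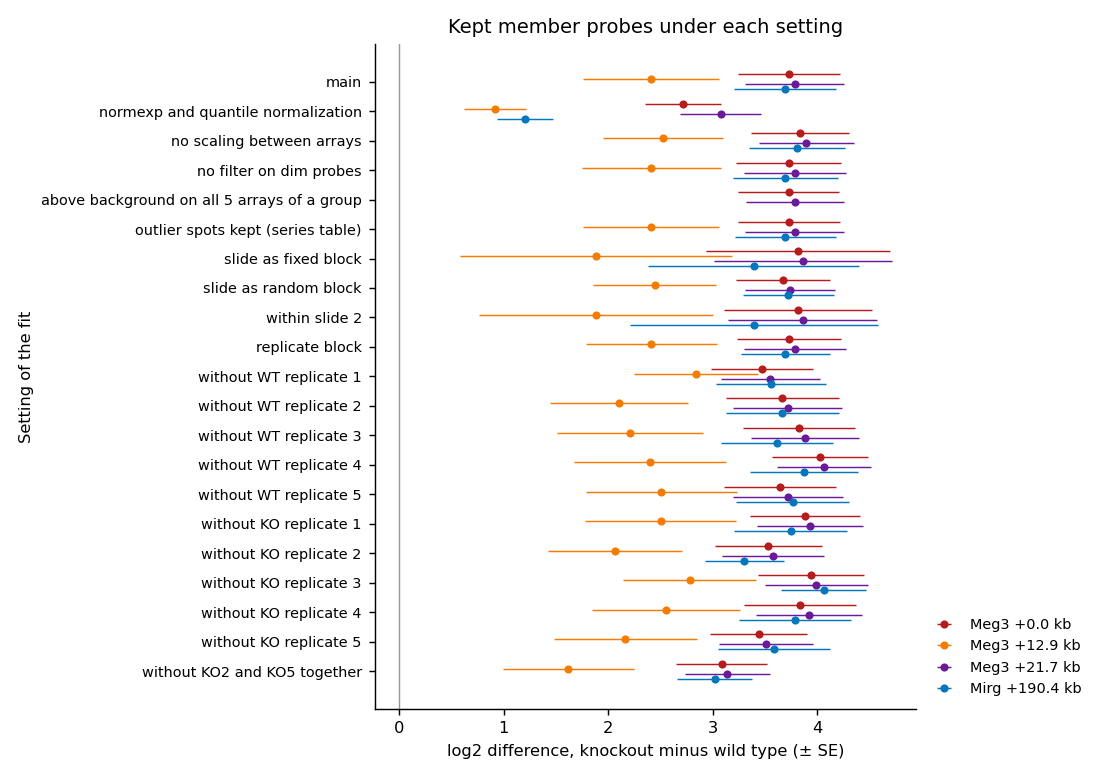
Log2 difference, knockout minus wild type, with the SE of the fit (horizontal axis), for the 4 kept member probes under each setting of the analysis (vertical axis). All points lie above 0, the smallest being 0.92 for the Meg3 probe at +12.9 kb under normexp and quantile normalization, and 2 probes have no point where the filter asked for all 5 arrays of a group.

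Beyond the outermost members, 0 of the kept probes on either side were called. Over the interval between the outermost members and 1 Mb beyond each end there were 64 other probes, of which 45 were kept, for 28 genes. Of these, 1 was called higher and 0 lower (3 had an unadjusted p under 0.05), where 5.07% of all kept probes were called in either direction. Their median difference was 0.02 and their range -0.46 to 0.53, and the median of all kept probes was 0.01. The difference between members and neighbours was not tested, since the members were chosen by it.

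The nearest kept neighbours on the Dlk1 side were 2 probes of Wdr25, a WD-repeat gene, at 0.53 ± 0.20 (limma adjusted p = 0.157) and -0.01 ± 0.11. Among the first genes past Dio3, the 3 kept probes of Ppp2r5c, a regulatory subunit of protein phosphatase 2A, differed by -0.05, 0.05 and -0.10. Inside the interval, 4 further probes for RNAs with no assigned function were above background on 0 arrays, and the probe of Dio3os, transcribed opposite to Dio3, was above it on KO4 alone. Of the unassigned probes, AK086774 (107179049 to 107179108) lay between the first and second Rian probes. Its intensities were 5.31 to 14.2 in wild type and 8.94 to 24.1 in the knockout. Whether it reads the Rian transcript was not tested.

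The 1 neighbour that was called had no gene symbol and was singled out after its values were seen. It lay inside the region, 277.1 kb from the first Meg3 probe (107348117 to 107361914, a listed span longer than the probe itself), beyond Mirg, and is named NAP070880-1 in the files. Its intensities were 524, 595, 676, 695 and 608 in wild type and 1048, 923, 1074, 748 and 865 in the knockout. The groups did not overlap, KO3 was the highest array relative to its 75th percentile, and KO4 the lowest of the knockout. It was higher by 0.47 ± 0.09 (limma adjusted p = 0.021), and by 0.40 within slide 2. The call was lost without WT1 or without WT2 (highest adjusted p 0.066). It was also lost with slide as a fixed block, within slide 2, with a replicate block, without the filter and without KO2 and KO5. Other settings kept the call, and the lowest limma adjusted p among them was 0.00994. With slide as a fixed block the difference rests on slide 2 alone, and so on WT5 as the only wild-type array. In that fit another neighbour past Dio3, AK049524, also singled out after its values were seen, was lower (-2.27 ± 0.15). With genotype alone AK049524 stood at -0.46 ± 0.41.

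**Figure D4:**
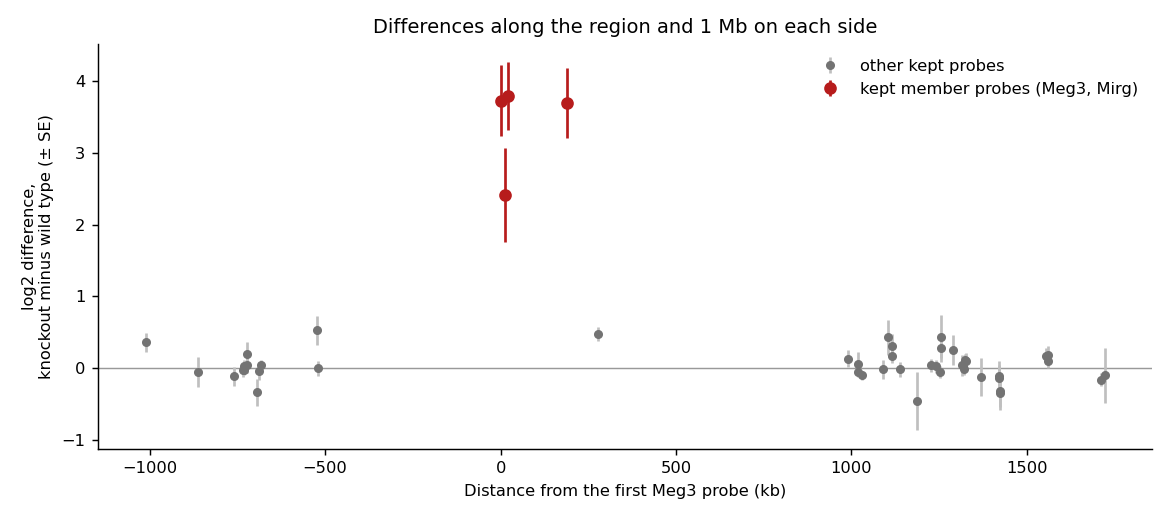
Log2 difference, knockout minus wild type, with its SE (vertical axis), of the 4 kept member probes (red) and the 45 other kept probes (grey) by distance from the first Meg3 probe in kb (horizontal axis). The grey points lie between -0.46 and 0.53, and the red points between 2.41 and 3.79.

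Other imprinted genes were read from a list of 56, of which 38 were tested. The call went to 2 as higher and to 3 as lower, where 2.06% and 3.01% of all kept probes were called, and the median difference was 0.05. Igf2, the fetal growth factor expressed from the paternal chromosome, rose 1.73-fold (0.79 ± 0.14, limma adjusted p = 0.014), and by 0.94 within slide 2. Its call held with any 1 array left out (highest adjusted p 0.039), but was lost with slide as a fixed block, within slide 2 and without KO2 and KO5 (adjusted p 0.00694 to 0.9998 over the other limma settings). Under normexp its difference was 0.37. Phlda2, a maternally expressed growth restrainer of the placenta, rose 2.69-fold (1.43 ± 0.30, adjusted p = 0.028). Under normexp its difference was 0.78 and the call was lost, as it was with slide as a fixed block, within slide 2, with a replicate block and without the filter (adjusted p 0.0054 to 0.9998 over these and the other limma settings). Cdkn1c, a maternally expressed inhibitor of the cell cycle, fell by 0.49 ± 0.11 (adjusted p = 0.033).

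Slc22a18, an organic cation transporter, fell by 0.41 ± 0.09 (limma adjusted p = 0.033), and Cd81, a tetraspanin, fell by 0.28 ± 0.07 (adjusted p = 0.046). These last 2 were named after their values were seen. For each of the 5, all 5 knockout arrays lay beyond all wild-type arrays. That adds no support, since the genes were called in the same contrast. Of all kept probes, 3.81% had every knockout array above every wild-type array, and the share with every knockout array below is not given. The calls of Cdkn1c, Slc22a18 and Cd81 were also lost with slide as a fixed block, within slide 2 and with a replicate block. They were lost without the filter, without scaling and without KO2 and KO5 too. Under normexp the calls of Slc22a18 and Cd81 were lost as well. Those of Phlda2, Cdkn1c, Slc22a18 and Cd81 were lost when certain single arrays were left out (6, 6, 7 and 8 of the 10 arrays in turn), with highest adjusted p of 0.076, 0.092, 0.093 and 0.123. Without scaling between arrays the split was 2 higher and 0 lower, and the median of all kept probes shifted to 0.12.

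Proteins that set or read imprints, with their partners, formed a list of 30, of which 27 were tested. Of these 1 was higher and 0 were lower, with a median of 0.01. The gene called was Rbbp4, a histone chaperone of chromatin complexes, at 0.37 ± 0.08 (limma adjusted p = 0.027). Leaving out any 1 of 5 arrays ended the call, with adjusted p up to 0.080, as did slide as a fixed block, slide 2 alone, a replicate block, no scaling and no filter. DNA methylation and allele of origin were not measured by these arrays.

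Genes linked to the coding members were read in the same way. Of 28 genes of thyroid hormone deiodination and response, the process in which Dio3 acts, 25 were tested, and limma called 0 in either direction (5 had an unadjusted p under 0.05), with a median of -0.05. The smallest p was that of Crym, a cytosolic thyroid hormone-binding protein, at 0.58 ± 0.18 (adjusted p = 0.095). Of 39 Notch ligands, receptors and targets, to which Dlk1 is related, 28 were tested, and limma called 0 (4 had an unadjusted p under 0.05), with a median of -0.01. The smallest p there was that of Egfl7, a secreted endothelial protein, at 0.39 ± 0.11 (adjusted p = 0.072).

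Since the cluster is a fetal one, a list of 30 fetal liver and liver tumour transcripts was also read, of which 22 were tested. It had 1 gene called higher and 0 lower, with a median of 0.10. The gene called was Tff3, a secreted trefoil peptide of mucous epithelia, at 2.35 ± 0.48 (limma adjusted p = 0.026). It was detected on 2 arrays of wild type and on all 5 of the knockout, stood at 1.02 within slide 2 and 1.29 under normexp, and lost its call without any 1 of 5 arrays (up to 0.076). The call was also lost with slide as a fixed block, within slide 2, without the filter and without KO2 and KO5.

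Markers of the cell types that whole liver holds were set beside Meg3, for the whole of each list. The hepatocyte markers had a median difference of -0.06, with summed linear levels relative to the 75th percentile of 2398 to 2751 in wild type and 2139 to 2839 in the knockout. Of 15 endothelial markers, 14 had a mean above wild type and 1 (Fcgr2b, a sinusoidal Fc receptor) was called higher. Their median was 0.32 (0.66 within slide 2), and the summed level was 38.8 to 50.8 in wild type and 57.1 to 83.1 in the knockout. By array, the endothelial median was 0.31, 0.17, 0.68, 0.33 and 0.19 in KO1 to KO5. It was highest in KO3, as were the macrophage (0.96), cholangiocyte (0.71) and adipocyte (-0.15) medians. The stellate or fibroblast (0.38) and lymphocyte (0.61) medians were highest in KO2, and the hepatocyte median in KO4 (0.04). Among the knockout arrays both bright Meg3 probes were highest in KO5 and KO2 and lowest in KO3. Whether these orders are linked was not tested.

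For the stellate or fibroblast markers the median was 0.19, with summed levels of 74.7 to 96.0 in wild type and 84.0 to 102.1 in the knockout. The macrophage markers had a median of 0.35, with overlapping sums of 50.7 to 112 and 47.1 to 108.7, and 1 of 12 (Cd163, a scavenger receptor) was called higher. The 5 tested cholangiocyte markers had a median of 0.16 and summed levels of 5.75 to 9.47 and 7.63 to 21.4, with Muc1 above background on 0 arrays. The 7 lymphocyte markers had a median of 0.00, with sums of 0.94 to 1.27 and 0.81 to 1.77, and Cd8a, Cd79a and Ncr1 above background on 0 arrays. The adipocyte markers had a median of -0.40 over the 3 tested, summed levels of 8.51 to 34.0 in wild type and 4.41 to 7.22 in the knockout, Cfd (adipsin) called lower, and Adipoq and Lep above background on 0 arrays. The part of these cell types in the Meg3 difference was not tested.

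The genes most like Meg3 over the arrays were ranked by Pearson's r with the distal probe over the 10 arrays, as a description with no test, since all probes share the arrays and the 2 groups. They were Nudt11, an inositol polyphosphate phosphohydrolase (r = 0.984), Zdhhc2, a palmitoyltransferase (0.984), Celf4, an RNA-binding protein (0.971), Pdia5, a disulfide isomerase of the endoplasmic reticulum (0.969), Cyp2c40, a cytochrome P450 (0.964), and Irx1, a homeobox gene (0.962). Their differences between groups ran from 0.68 ± 0.12 for Celf4 to 1.65 ± 0.27 for Nudt11. On the same measure the split Meg3 probe stood at 0.999, Mirg at 0.967 and the dim Meg3 probe at +12.9 kb at 0.772.

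Pearson's r was also taken with each group's mean subtracted, which leaves only the differences between arrays within groups. Of the 6 closest genes, the first were Mageh1, a MAGE family gene (0.957), Nudt11 (0.938) and Ssr2, a subunit of the translocon-associated complex (0.927). The rest were Trmt6, a tRNA methyltransferase subunit (0.926), Xbp1, the transcription factor of the unfolded protein response (0.915), and Ncoa3, a nuclear receptor coactivator (0.913). The split Meg3 probe stood at 0.997, Mirg at 0.767 and the dim Meg3 probe at +12.9 kb at 0.283. Nudt11 was the only gene among the first 6 on both measures.

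The promoter window of Meg3 in RefSeq's table, 250 bases before to 50 after the start, is shown because Meg3 is the transcript with the clearest difference, and its CG dinucleotides are in capitals. It is on the forward strand at chr12:109540746-109541045 (GRCm38.p6), was 53.7% G or C and held 13 CG dinucleotides.
Meg3 promoter: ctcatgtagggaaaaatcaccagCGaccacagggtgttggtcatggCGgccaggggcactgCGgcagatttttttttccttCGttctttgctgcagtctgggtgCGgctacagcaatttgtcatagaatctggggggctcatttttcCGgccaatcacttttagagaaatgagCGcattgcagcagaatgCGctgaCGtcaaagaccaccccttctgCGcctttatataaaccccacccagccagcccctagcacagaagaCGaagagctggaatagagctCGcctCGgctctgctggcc
TR4 is known to bind repeats of the letters AGGTCA. That motif, searched on both strands, was not in this window, nor in the windows of Rian, Mirg, Dlk1, Dio3 or Begain. It was in the window of a second listed start of Meg3 (109545148 to 109545447), on the reverse strand. Of 32851 promoter windows of the same length in the table, 16.26% held it, and 0.04% held 2 copies of it in a row with 1 base between them. The absence of these letters from a window says nothing about binding of the receptor.

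The microRNAs that the noncoding members host were not measured by these probes, and the Mirg probe reads the long RNA. RefSeq's table places 112 entries for mature microRNAs between the start of Meg3 and the end of Mirg. Of these, 19 lie within Mirg, 6 within Rian and 3 within Meg3. A few from Mirg, the member at background in wild type, are shown with the seed (bases 2 to 8) in capitals. The first pair share the seed GGUUGCC and the others have seeds of their own within the span.
mmu-miR-453: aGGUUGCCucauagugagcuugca
mmu-miR-496a-5p: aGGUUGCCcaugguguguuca
mmu-miR-369-3p: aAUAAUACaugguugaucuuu
mmu-miR-410-3p: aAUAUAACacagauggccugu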

How the data were processed

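Per the file headers, the authors made the deposited intensity values in Feature Extraction 9.5.1.1 (9.5 in the submitters' processing notes), subtracting background, on a linear scale, with no normalisation across arrays. Their series table repeats these intensities (largest difference 0, medians 80.0 to 107.6). Here log2 intensity minus each array's 75th percentile over non-control probes was used, with no pseudocount, outlier spots missing and spots of a probe averaged. The filter kept 23266 of 41174 probes, those flagged well above background on 4 or more of the 5 arrays in either group. Symbols came from RefSeq by accession (22951 probes), symbol (6659) or older symbol (3109), and 8455 kept the files' names. Groups came from the labels. The comparison of the 2 genotypes used limma 3.58.1 (lmFit, then eBayes; R 4.3.3), two-sided, with genotype as the only term and Benjamini-Hochberg adjustment over all kept probes, after a test on simulated data. A gene "rose", "fell" or was "called" at an adjusted p under 0.05. Differences are knockout minus wild type ± SE. In gene lists, each gene is its kept probe with the highest mean signal.

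The rule named every member probe, the Nr2c2 probes, called neighbours with a symbol, up to 3 called genes of each of 5 lists by smallest p (otherwise the 1 with the smallest p), and the 6 genes most like Meg3 on each measure. The members and lists were chosen with earlier results of these data known. The alternatives were other background correction, scaling, filters, outlier treatment, slide as a block, slide 2 alone, a replicate block and leaving out single arrays. The number of arrays limits the precision.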

Additional observations from a re-analysis of the deposited data

How the results depend on the processing

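The 4 kept member probes were higher in the knockout under every setting in which they were tested: with single arrays left out, by 3.44 to 4.03 at the split Meg3 probe, 3.51 to 4.07 at the distal one, 3.30 to 4.06 at Mirg and 2.06 to 2.84 at +12.9 kb. Whether the replicate numbers shared by the groups pair the samples is not known. Deviations from the group means correlated at -0.205 to 0.052 between same-numbered arrays, which cannot settle it. As a block the replicate numbers left 3 member probes called and moved the calls over all probes from 1180 to 221. The calls moved from 5 to 1 over other imprinted genes, from 1 to 0 over neighbours and from 1 to 0 over imprint control proteins. Over all probes the count was 602 without scaling (406 higher, against 479 of 1180), 297 without a filter, 46 with slide as a fixed block, 1878 with it as a random block, 2 within slide 2, and 702 without KO2 and KO5, a setting chosen after seeing the data. Leaving out single arrays gave 344 to 1579 calls. The member count was 0 with slide as a fixed block and within slide 2, and 3 to 4 with single arrays left out. Other imprinted genes gave 2 with normexp, 2 without scaling, 1 without a filter, 0 with slide fixed or within slide 2, 3 without KO2 and KO5, and 1 to 6 with single arrays left out. The neighbour count was 0 without a filter, within slide 2 and without KO2 and KO5. It stayed at 1 when slide was a fixed block, but the called neighbour was lost and another (AK049524) was called lower. The imprint control count was 0 without scaling, without a filter, with slide fixed and within slide 2. Of the 3 other imprinted genes called without KO2 and KO5, only 1 was among the 5 called with all arrays. The rest were Sgce (0.74 ± 0.15) and Grb10 (0.54 ± 0.10), both higher and named after their values were seen. The thyroid count was 1 without KO2 and KO5, and the Notch count 1 with normexp. Without KO5 the fetal liver call turned from Tff3, higher, to Birc5, lower by limma (-0.94 ± 0.19, against -0.55 ± 0.38 with all arrays), named after its values were seen. That count was 0 without a filter, with slide fixed, within slide 2 and without KO2 and KO5. Single arrays left out gave 0 to 1 for each of the last 5. Within slide 2 there was 1 wild-type array, so 4 of the 10 arrays entered. With slide as a fixed block the difference also comes from WT5 against KO1 to KO3, so these settings are not separate checks. The cause of the other changes was not tested. Rian, Dlk1, Dio3 and 2 Meg3 probes are limited by signal over background.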
